A study of Mus musculus with 18 samples.

Results

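Cells that carried GFP were set against cells that lacked it in the bone of control mice, over all genes. The GFP-positive group held the 3 libraries titled as control bone GFP-positive, and the GFP-negative group the 3 titled as control bone GFP-negative and Tm-positive, as the labels abbreviate the second marker. These 6 libraries are among 18 in the series, which also holds marrow cells and the same subsets from mice in which Pth1r was knocked out conditionally. All 6 came from mice labelled wild type at postnatal day 21, and the labels call both groups bone cells. Both groups are osterix-derived, per the design text. The labels do not say what drives GFP or the Tm marker, nor whether animals were pooled, nor do they tie each library to an animal of its own. The p-values therefore measure only the spread between these libraries, which may be technical in part. Y-linked genes took 0.0162 and 0.0135% of counts in GFP-positive replicates 1 and 2 and 0.000373% in replicate 3. In GFP-negative libraries they took 0.00926 and 0.00861%, and 0.000371% in replicate 3. Replicate 3 therefore did not come from the same animal or pool as replicates 1 and 2.

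Osterix, encoded by Sp7, is a transcription factor needed for osteoblasts to form, and it is also made by maturing chondrocytes of the growth plate. Descendants of osterix-expressing cells can include growth plate chondrocytes, osteoblasts, osteocytes and stromal cells of the marrow. Chondrocytes lay down a matrix of type II collagen and aggrecan, and osteoblasts one of type I collagen that mineralises.

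Total counts were 24458754, 23216537 and 19281669 in the GFP-positive libraries and 16561869, 20522096 and 17529792 in the GFP-negative libraries. Levels are in CPM, read counts brought to 1 library size by TMM scaling, which corrects for RNA composition. A count of 0 allows up to 0.115 to 0.145 CPM in a GFP-positive and 0.16 to 0.191 CPM in a GFP-negative library. Such limits cover counting error only. The 10 most read genes took 22.6 to 23.8% of the counts in GFP-positive and 38.7 to 41.1% in GFP-negative libraries. Differences are log2 fold changes ± SE of GFP-positive over GFP-negative cells, with the replicate number as a block. A gene is called when its edgeR p, adjusted over all 13627 genes tested, is under 0.05.

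Of the 13627 genes, 5899 were called (43.3%). GFP-positive cells were higher for 2839 of them (20.8%) and lower for 3060 (22.5%). At least 2-fold differences were less even, with 910 genes higher (6.68%) and 1769 lower (13%), 19.7% in all. The 3 libraries of each group did not overlap for 54% of genes. With libraries scaled by their totals alone, the median of all genes was shifted by 0.19 and 63.6% of calls were higher, against 48.1% with TMM. The median log2 fold change of all genes was -0.01, and the gene lists below are read against it and against the percentages called.

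Cartilage genes made up 6 of the 10 most read genes of the GFP-positive cells, which the labels call bone cells: Col2a1, Comp, Col9a3, Matn3, Cnmd and Hapln1. The GFP-negative 10 held 1, Col2a1, beside Col1a1, Col1a2, Sparc and Bglap. All 19 genes of a cartilage list rose in GFP-positive cells, with a median of 1.78 and a range of 0.47 to 2.11. Their summed level was 147354 to 173632 CPM in GFP-positive and 43027 to 57774 CPM in GFP-negative libraries. In bulk RNA, fewer cells of a type and less RNA per cell cannot be told apart.

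Col2a1 (ENSMUSG00000022483.17, mm10 chromosome 15, 97975602 to 98004695, minus strand) encodes type II collagen, the main collagen of cartilage. It was counted at 81332, 77705 and 97896 CPM in the GFP-positive libraries, against 23946, 27774 and 33103 CPM in the GFP-negative libraries. Every GFP-positive library lay above every GFP-negative one, and the log2 fold change was 1.60 ± 0.08 (adjusted p = 3.63e-07). Sox9, the transcription factor that specifies chondrocytes, had 1435, 1563 and 1731 CPM in GFP-positive and 497, 472 and 580 CPM in GFP-negative libraries. Its rise was 1.61 ± 0.06 (adjusted p = 1.00e-07). Its partners Sox5 and Sox6 rose by 1.66 ± 0.11 and 1.25 ± 0.14.

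The proteins that organise cartilage matrix moved with them. Acan, which encodes the proteoglycan aggrecan, had 1594, 1293 and 1563 CPM in GFP-positive and 548, 535 and 669 CPM in GFP-negative libraries, a rise of 1.35 ± 0.07. Matn3, a matrilin that links matrix fibrils, averaged 8800 CPM in GFP-positive and 2321 CPM in GFP-negative libraries (1.93 ± 0.06). Hapln1, the link protein that ties aggrecan to hyaluronan, averaged 7377 and 1934 CPM in GFP-positive and GFP-negative libraries (1.94 ± 0.07). Cnmd encodes chondromodulin, an inhibitor of vessel growth in cartilage, and rose by 1.98 ± 0.07. Col11a1 and Col11a2, chains of the thin fibrils, rose least of the list, by 0.47 ± 0.08 and 0.49 ± 0.13, and the call of Col11a2 ended with DESeq2 and without replicate 1 or 3 (adjusted p = 0.119, 0.1 and 0.295), with no filter (0.342), with the 9 control libraries (0.0861), and without GFP-negative replicate 1 and no block (0.0588). In the fit of all 18 libraries both calls ended (0.095 for Col11a1 and 0.1 for Col11a2). GFP-negative cells were not free of cartilage transcripts: for 17 of the 19 genes, their mean was between 23.0% (Snorc) and 41.9% (Sox6) of the GFP-positive mean, and for Col11a1 and Col11a2 it was 72.8% and 71.0%.

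Of 7 genes of hypertrophic chondrocytes, the cells that enlarge before cartilage is replaced by bone, 6 rose in GFP-positive cells. Ihh, the hedgehog ligand of prehypertrophic cells, had 853, 920 and 929 CPM in GFP-positive and 229, 204 and 245 CPM in GFP-negative libraries, a rise with an adjusted p of 7.59e-08. The channel gene Panx3 rose by 1.94 ± 0.07 and Col10a1, the collagen that marks hypertrophy, by 1.13 ± 0.09. Mmp13, a collagenase of late hypertrophic cells and of osteoblasts, went the other way, with 625, 342 and 348 CPM in GFP-positive and 1126, 761 and 971 CPM in GFP-negative libraries (-1.16 ± 0.10, adjusted p = 2.46e-05). Its call ended with no replicate block when GFP-negative replicate 1 was left out (adjusted p = 0.0612) and likewise without GFP-negative replicate 3 or GFP-positive replicate 2 or 3 (0.0687 to 0.0929).

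**Figure D1:**
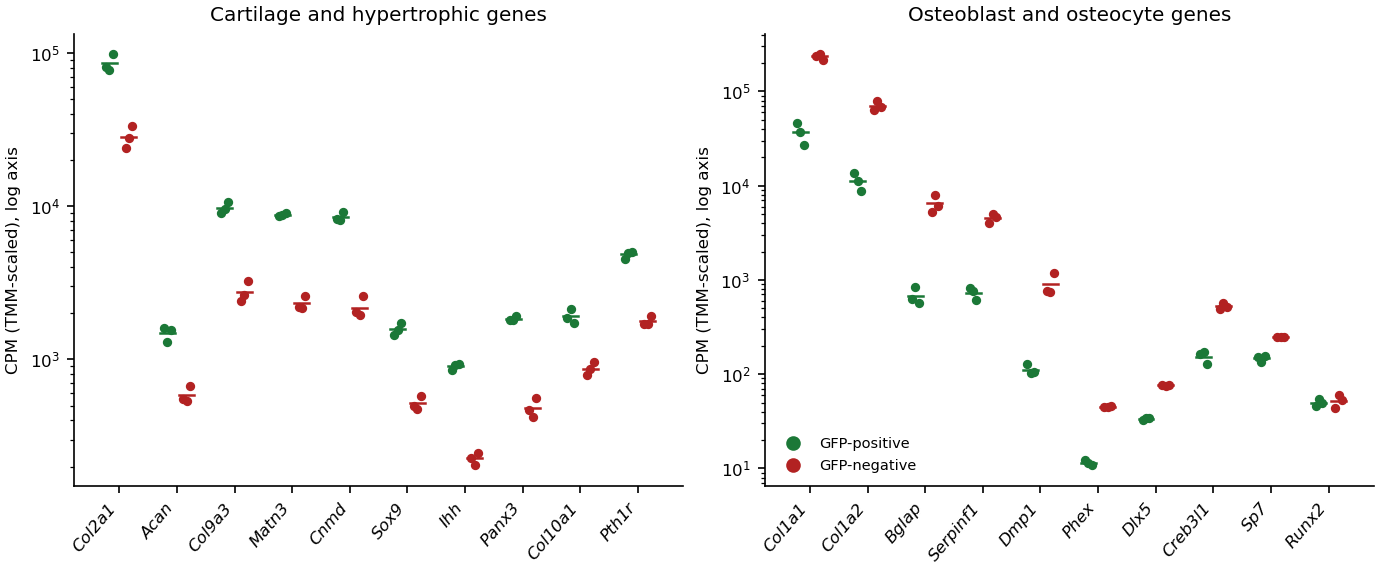
Levels of 20 genes in control bone. Each point is 1 library (CPM after TMM scaling, log axis), short lines are means of 3 libraries, GFP-positive is drawn left of GFP-negative, and the cartilage and hypertrophic genes of the left panel are higher in every GFP-positive library while 9 of the 10 osteoblast and osteocyte genes on the right are lower and Runx2 overlaps.

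Bone matrix transcripts fell in GFP-positive cells. Of 15 bone matrix genes, 14 were called lower and none higher, with a median of -2.01, and in all 15 every GFP-positive library lay under every GFP-negative one (27.6% of all genes tested did so in this direction). Their summed level was 64464 to 94543 CPM in GFP-positive and 361630 to 404015 CPM in GFP-negative libraries.

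Col1a1 (ENSMUSG00000001506.10, mm10 chromosome 11, 94936224 to 94953042, plus strand), a chain of type I collagen, had 46353, 36959 and 26851 CPM in GFP-positive and 240201, 247465 and 216831 CPM in GFP-negative libraries. The log2 fold change was -2.71 ± 0.12 (adjusted p = 2.19e-07), and its partner chain Col1a2 fell by 2.68 ± 0.13 on the log2 scale. Although lower, Col1a1 still had the second-highest count in the GFP-positive cells, after Col2a1. Bglap, which encodes osteocalcin of mature osteoblasts, had 630, 846 and 566 CPM in GFP-positive and 5302, 7989 and 6142 CPM in GFP-negative libraries (-3.25 ± 0.08, adjusted p = 2.84e-08). Bglap2, a near-identical neighbour of Bglap with which reads may be shared, was at -3.07 ± 0.08. Serpinf1, which encodes an antiangiogenic factor of osteoblasts, fell by 2.65 ± 0.11 on the log2 scale. Ibsp, bone sialoprotein, was at 2589, 2190 and 1488 CPM in GFP-positive and 3565, 3067 and 4174 CPM in GFP-negative libraries, and its difference of -0.81 ± 0.23 missed the threshold (adjusted p = 0.0503).

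The stretch before the start of Bglap is shown because this gene had the largest fall of the bone matrix list. It is the 250 bases upstream of the RefSeq start on GRCm38.p6 (the assembly that mm10 names), chr3:88384467-88384716, minus strand, 5′ to 3′. Capitals mark ACCACA, the core that RUNX factors recognise, searched on both strands.
Bglap: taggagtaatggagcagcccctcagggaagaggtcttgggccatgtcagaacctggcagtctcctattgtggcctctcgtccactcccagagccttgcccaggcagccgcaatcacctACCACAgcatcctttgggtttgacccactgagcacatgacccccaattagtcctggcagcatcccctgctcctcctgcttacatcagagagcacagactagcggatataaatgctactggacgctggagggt
The hexamer occurred 1 time here, and 10.2% of 10155 tested genes with a RefSeq promoter hold it in the same window. Of the 2293 called lower 10% held it, and of 11 bone matrix promoters 3 did. A match of letters is a description and not a measured binding site.

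Transcription factors of osteoblasts were mostly lower: 7 of 10 fell and 1 rose, with a median of -1.19. Sp7 itself (ENSMUSG00000060284.7, mm10 chromosome 15, 102356606 to 102367182, minus strand) had 151, 136 and 156 CPM in GFP-positive and 250, 248 and 247 CPM in GFP-negative libraries. It was present in all 6 libraries and fell by 0.75 ± 0.06 on the log2 scale (adjusted p = 1.60e-05). Runx2, the factor that starts the osteoblast lineage and also acts in hypertrophic chondrocytes, had 46, 53.9 and 49.2 CPM in GFP-positive and 43.3, 59.8 and 52.9 CPM in GFP-negative libraries. The groups overlapped, and its difference of -0.06 ± 0.09 was not called (adjusted p = 0.643). Creb3l1, which drives the secretory load of collagen-making cells, was at -1.78 ± 0.08, Dlx5 at -1.17 ± 0.08 and Msx1 at -1.41 ± 0.15. Atf4, a stress-responsive factor needed by osteoblasts and chondrocytes alike, was the 1 that rose (0.48 ± 0.07).

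Osteocytes are osteoblasts that have become buried in bone. Of 8 osteocyte genes tested, 5 fell, none rose, and the median was -2.11. Dmp1, which encodes an acidic matrix protein, had 128, 102 and 105 CPM in GFP-positive and 759, 747 and 1176 CPM in GFP-negative libraries (-2.97 ± 0.18, adjusted p = 3.25e-05). Mepe, another protein of this family, averaged 1.69 CPM in GFP-positive and 7.36 CPM in GFP-negative libraries. Sost, which encodes sclerostin, was near the detection limit in both, at 0.582 and 1.3 CPM in GFP-positive and GFP-negative libraries, and was not called (adjusted p = 0.138).

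Genes of mineralisation split. Of 13, 5 rose and 5 fell, and the median was 0.11. Smpd3, a neutral sphingomyelinase needed for matrix to mineralise, had 3417, 3086 and 3690 CPM in GFP-positive and 1162, 1289 and 1415 CPM in GFP-negative libraries (1.40 ± 0.07). Enpp1, which makes the mineral inhibitor pyrophosphate, rose by 0.90 ± 0.08, and Ank, which exports pyrophosphate, fell by 1.04 ± 0.15 on the log2 scale. The phosphate transporter genes also parted: Slc20a1 rose by 1.10 ± 0.20, while Slc20a2 had 26.2, 19.6 and 22.6 CPM in GFP-positive and 236, 199 and 212 CPM in GFP-negative libraries (-3.25 ± 0.07). Phex, whose loss causes phosphate wasting, fell by 1.97 ± 0.11 on the log2 scale. Alpl, the alkaline phosphatase of mineralising chondrocytes and osteoblasts, was only slightly lower, at 2313, 2483 and 2251 CPM in GFP-positive and 3038, 3310 and 3292 CPM in GFP-negative libraries (-0.45 ± 0.06).

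Transcripts of stromal and fibroblastic cells were far lower in GFP-positive cells. Of 18 marrow stroma genes, 17 fell and 1 rose, with a median of -2.82. Their sum was 534 to 552 CPM in GFP-positive and 2182 to 2775 CPM in GFP-negative bone libraries, and 32233 to 44677 CPM in the 3 control marrow libraries. Cxcl12, the chemokine that holds blood stem cells in the marrow, had 92.2, 122 and 122 CPM in GFP-positive and 1273, 1293 and 913 CPM in GFP-negative libraries (-3.36 ± 0.16, adjusted p = 5.72e-06). Lepr, the leptin receptor that marks perivascular stroma, had 13.9, 11.8 and 14.4 CPM in GFP-positive and 108, 91.8 and 79.2 CPM in GFP-negative libraries (-2.79 ± 0.12). Fbln5, an elastic fibre protein, showed the largest fall of the list (-3.69 ± 0.08). Foxc1, a transcription factor of stroma that is also active in growth plate cartilage, was the 1 that rose, at 202, 188 and 213 CPM in GFP-positive and 117, 104 and 111 CPM in GFP-negative libraries (0.86 ± 0.06).

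All but 1 of 17 fibroblast and periosteal genes fell as well, and none rose (median -2.21). Dcn, the small proteoglycan decorin, had 1000, 855 and 729 CPM in GFP-positive and 6054, 6546 and 6022 CPM in GFP-negative libraries (-2.86 ± 0.09). Postn, periostin, was at -1.79 ± 0.08 and Col3a1, type III collagen, at -1.87 ± 0.10. Pi16 and Clec3b, markers of fibroblasts of the outer connective tissue, were near the limit that a count of 0 allows in GFP-positive cells, at 0.0954 and 0.176 CPM, against 4.52 and 4.71 CPM in GFP-negative cells. S100a4 was not called (-0.65 ± 0.46).

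Smooth muscle and pericyte genes followed, with 10 of 11 lower and 1 higher (median -2.68). Acta2, smooth muscle actin, averaged 33.7 CPM in GFP-positive and 214 CPM in GFP-negative libraries (-2.68 ± 0.09), and Rgs5, a signalling inhibitor of pericytes, 5.55 and 140 CPM in GFP-positive and GFP-negative libraries (-4.64 ± 0.12). Cspg4, the NG2 proteoglycan of pericytes that chondrocytes also make, rose by 0.89 ± 0.08. Of 14 adipocyte genes, 8 fell and 3 rose, and without the replicate 3 pair 6 fell and 1 rose. The fat regulator Pparg had 0.768, 0.967 and 0.532 CPM in GFP-positive and 11.8, 9.54 and 5.75 CPM in GFP-negative libraries (-3.55 ± 0.30), and Lpl, lipoprotein lipase, was at -2.61 ± 0.07. Cebpb, a factor of early fat cells that acts in many cell types, rose by 0.62 ± 0.08. Among 8 tendon genes, 5 fell and 2 rose (3 and 1 in a fit of all 18 libraries): Scx, the tendon transcription factor, was at -1.05 ± 0.13, and Fmod, fibromodulin of tendon and cartilage, at 1.02 ± 0.05.

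**Figure D2:**
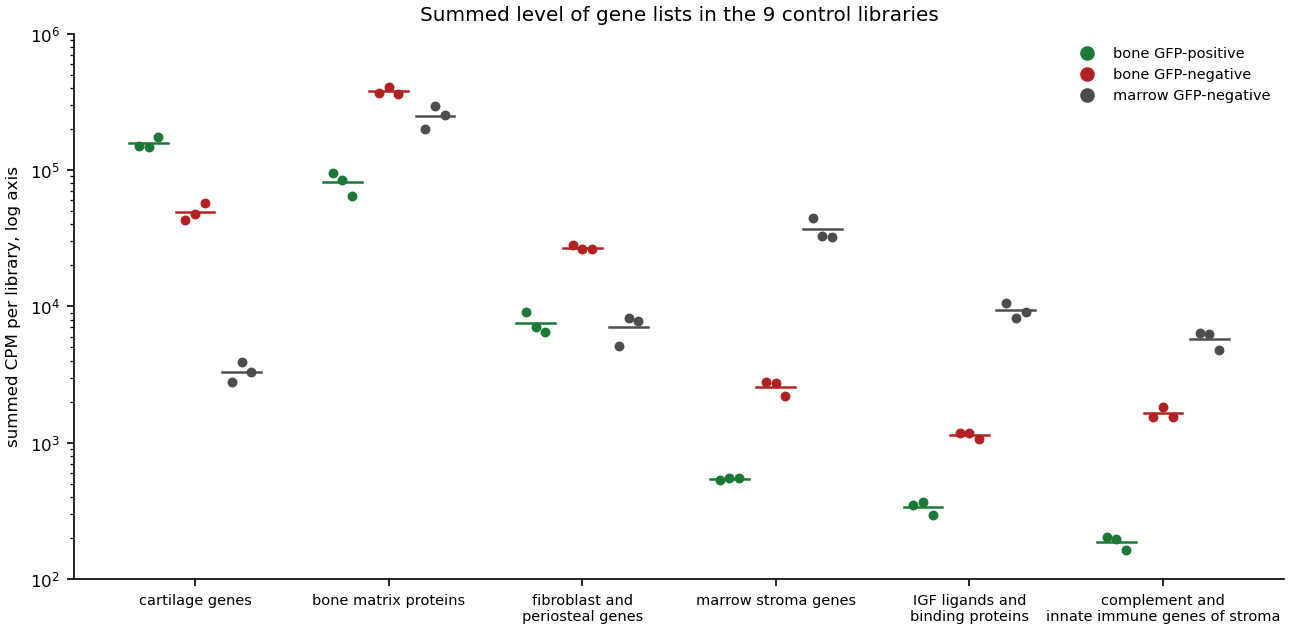
Summed CPM of 6 gene lists in each of the 9 control libraries (log axis). Points are libraries and short lines are means of 3. Cartilage genes are highest in GFP-positive bone at 147354 to 173632 CPM, bone matrix and fibroblast genes in GFP-negative bone, and the stroma, IGF and complement lists in marrow, with GFP-positive bone lowest for the last 3.

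Glycolysis genes rose as a block in GFP-positive cells. Growth plate cartilage has no blood vessels, and chondrocytes are known to rely on glycolysis. All 16 genes of the list were called higher, with a median of 1.38 and a range of 0.58 to 2.06, and all 16 had no overlap between groups (26.4% of all genes tested did so in this direction). Their sum was 13663 to 14636 CPM in GFP-positive and 5207 to 5395 CPM in GFP-negative libraries.

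Slc16a3, a lactate exporter, had 329, 351 and 333 CPM in GFP-positive and 84.9, 81.1 and 77.4 CPM in GFP-negative libraries, the largest rise of the list (2.06 ± 0.07, adjusted p = 5.82e-08). Slc2a1, the basal glucose transporter, had 213, 249 and 217 CPM in GFP-positive and 59.9, 71.3 and 62.6 CPM in GFP-negative libraries (1.81 ± 0.06). Ldha, which makes lactate, had 3771, 3998 and 3724 CPM in GFP-positive and 1348, 1311 and 1353 CPM in GFP-negative libraries (1.52 ± 0.06). Every step sampled was higher, down to Hk1 (0.58 ± 0.07). Pdk1, which holds pyruvate back from the mitochondria, rose by 1.45 ± 0.09.

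Promoters of 3 of these genes are shown because hypoxia-inducible factor, a known regulator of glycolysis, recognises a core of ACGTG. Each line is the 250 bases before the RefSeq start on GRCm38.p6, plus strand, 5′ to 3′: Slc16a3 at chr11:120948817-120949066, Ldha at chr7:46845554-46845803 and Pgk1 at chrX:106186850-106187099. Capitals mark ACGTG or its reverse complement CACGT, which overlap where CACGTG stands.
Slc16a3: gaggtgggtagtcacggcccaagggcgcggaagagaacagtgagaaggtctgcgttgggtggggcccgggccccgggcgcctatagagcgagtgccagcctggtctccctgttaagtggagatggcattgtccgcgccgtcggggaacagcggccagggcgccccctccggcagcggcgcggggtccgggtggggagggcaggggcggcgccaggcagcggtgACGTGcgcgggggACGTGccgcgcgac
Ldha: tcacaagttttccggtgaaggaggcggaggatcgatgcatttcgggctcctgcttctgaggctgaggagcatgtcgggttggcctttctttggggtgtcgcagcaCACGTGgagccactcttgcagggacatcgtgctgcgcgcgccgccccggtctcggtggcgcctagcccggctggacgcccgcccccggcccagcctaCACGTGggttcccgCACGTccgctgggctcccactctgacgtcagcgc
Pgk1: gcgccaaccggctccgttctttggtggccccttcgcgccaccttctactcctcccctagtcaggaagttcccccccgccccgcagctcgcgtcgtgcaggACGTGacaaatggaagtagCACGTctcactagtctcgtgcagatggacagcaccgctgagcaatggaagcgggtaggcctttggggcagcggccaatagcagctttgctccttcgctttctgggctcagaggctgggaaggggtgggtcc
Counting both strands, the core occurred 2 times before Slc16a3, 5 times before Ldha and 2 times before Pgk1. Each CACGTG counts on both strands. The core was present in 6 of 16 glycolysis promoters, among them the 3 shown, and in 7 of 9 of the hypoxia list. By comparison, 22% of the 10155 tested genes with a RefSeq promoter held it, and 25.8% of the 2173 called higher. Binding was not measured, and a match of letters is no more than a description.

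Of 11 hypoxia-induced genes, 9 rose and none fell (median 1.28). Bnip3, a mitophagy receptor, had 587, 525 and 476 CPM in GFP-positive and 132, 103 and 126 CPM in GFP-negative libraries (2.14 ± 0.08). Ndufa4l2, which damps mitochondrial respiration, rose by 1.76 ± 0.09, while Adm, adrenomedullin, was at 21.8 CPM in GFP-positive and 22.4 CPM in GFP-negative cells and was not called. By comparison, 7 of 18 nuclear genes of oxidative phosphorylation rose and 1 fell, with a median of 0.13, and the called rises were small, 0.26 to 0.45. With libraries scaled by totals alone, 14 of the 18 rose and none fell, this median was 0.32, and Cox4i1 changed sign to 0.19. Mitochondrially encoded genes took 0.135 to 0.153% of counts in GFP-positive and 0.254 to 0.304% in GFP-negative libraries.

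**Figure D3:**
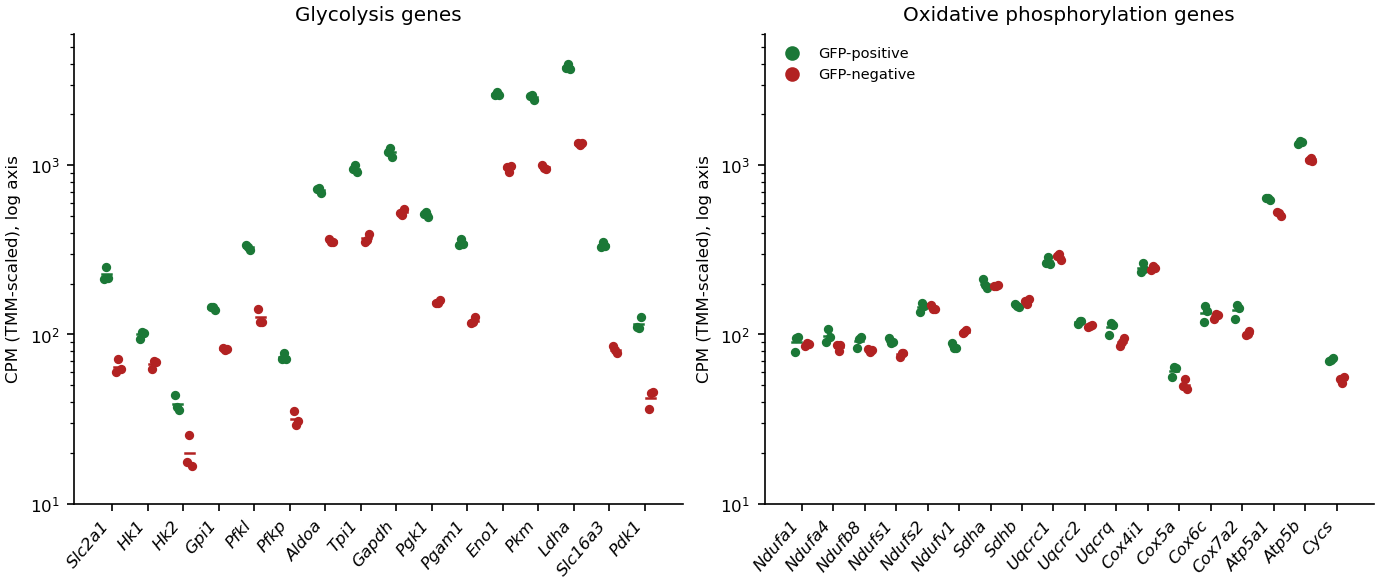
Levels of 16 glycolysis genes (left) and 18 oxidative phosphorylation genes (right) in control bone. Each point is 1 library (CPM after TMM scaling, log axis), lines are means of 3 libraries, and GFP-positive is left of GFP-negative. The groups separate for every glycolysis gene and are closer together for the oxidative phosphorylation genes, of which 10 lie wholly higher and 1 wholly lower in GFP-positive libraries.

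The receptor and ligands of the growth plate feedback loop were unequally spread. Parathyroid hormone-related protein from resting chondrocytes acts through Pth1r and delays hypertrophy, and Ihh from prehypertrophic cells maintains it. Pth1r (mm10 chromosome 9, 110722085 to 110747145, ENSMUSG00000032492.14, on the minus strand) had 4526, 4942 and 5060 CPM in GFP-positive and 1696, 1695 and 1930 CPM in GFP-negative libraries, a rise of 1.45 ± 0.06 (adjusted p = 1.49e-07). Its ligand gene Pthlh was at 0.115, 0 and 0.145 CPM in GFP-positive and 3.69, 2.45 and 5.81 CPM in GFP-negative libraries (-5.50 ± 0.62, adjusted p = 1.02e-04). The GFP-positive values are at or under the limit that a count of 0 allows. Of 20 genes of Pth1r signalling and cAMP response, 4 rose and 6 fell (median -0.34), against 7 higher and 4 lower with libraries scaled by totals alone (median -0.15). Among them were Pde4b, which breaks down cAMP, at 1.51 ± 0.08 and Rgs2, which damps Gq signalling, at -2.74 ± 0.22. Of 9 hedgehog genes, Ihh and its receptor and target Ptch1 (0.67 ± 0.18, adjusted p = 0.0588 and 0.0779 without replicate 1 and 2) rose, 2 fell, among them the inhibitor Sufu (-1.10), and Gli1 was not called (0.50 ± 0.34, adjusted p = 0.271).

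Secreted antagonists of Wnt, a pathway that promotes bone formation, were mostly lower: 8 of 13 fell and 2 rose. Wif1, which binds Wnt ligands, had 58.7, 62.2 and 44.8 CPM in GFP-positive and 478, 523 and 477 CPM in GFP-negative libraries (-3.17 ± 0.09). Sfrp2 was at -3.99 ± 0.28 and Dkk1, which blocks Wnt coreceptors, at -2.26 ± 0.20. The 2 that rose were Frzb (0.89 ± 0.06) and Sfrp5 (1.14 ± 0.25, adjusted p = 0.0533 in a fit of all 18 libraries). Both are of the frizzled-related kind, but so is Sfrp2, which fell. Sfrp1 and Sfrp4 of this kind were also lower on average, with mean log2 differences of -0.79 and -2.38. Of 12 Wnt feedback targets and receptors, 2 rose and 5 fell (median -0.32), and 1 rose without any 1 of the 3 pairs or with no block. Nkd2, a feedback inhibitor, had 3.65, 4.71 and 3.39 CPM in GFP-positive and 28, 40.8 and 45.5 CPM in GFP-negative libraries (-3.26 ± 0.18). The coreceptor gene Lrp5 and the inhibitor Apcdd1 were at -2.47 ± 0.28 and -2.11 ± 0.23, and Lgr6, a receptor for Wnt-enhancing R-spondins, rose by 1.57 ± 0.20. Axin2, a widely used readout of the pathway, averaged 0.904 CPM in GFP-positive and 0.846 CPM in GFP-negative cells and was not called.

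BMP genes were split, with 6 higher and 7 lower of 14. Nog, the BMP antagonist noggin, had 152, 195 and 181 CPM in GFP-positive and 44.2, 37.7 and 51.4 CPM in GFP-negative libraries (1.99 ± 0.12). Chrdl1, another antagonist, rose by 1.51 ± 0.06, as did the ligands Bmp6 (1.18 ± 0.09) and Bmp2 (0.84 ± 0.09), while Bmp3 was at -2.86 ± 0.17 and Bmp4 at -2.20 ± 0.15. The BMP target genes Id1 and Id3 went opposite ways, at 1.49 ± 0.08 and -0.97 ± 0.06. Among 10 FGF genes 4 rose and 5 fell: Fgfr3, the receptor that restrains chondrocyte growth, had 627, 434 and 671 CPM in GFP-positive and 220, 185 and 146 CPM in GFP-negative libraries (1.64 ± 0.18), and Fgfr1 and Fgfr2 were at -1.21 ± 0.09 and -1.58 ± 0.10. With no filter on low counts, 2 of the FGF genes were called higher and the call of Fgfr3 ended (adjusted p = 0.0782).

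Most IGF and Notch genes were lower. Of 10 IGF genes, 7 fell and 1 rose (median -2.68). Igf1, a growth factor of bone and growth plate, had 7.95, 6.56 and 7.16 CPM in GFP-positive and 114, 100 and 103 CPM in GFP-negative libraries (-3.87 ± 0.09, adjusted p = 2.84e-08). Igfbp4, which binds it, fell by 2.88 ± 0.06 on the log2 scale, and its receptor gene Igf1r was not called (0.44 ± 0.20). Of 10 Notch genes, 7 fell and 1 rose. Their summed levels overlapped, at 166 to 187 CPM in GFP-positive and 178 to 193 CPM in GFP-negative libraries. The Notch targets Hey1 and Heyl were at -3.39 ± 0.23 and -3.14 ± 0.15, and Hes1, also a target, was the 1 that rose (0.92 ± 0.07).

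Signals to osteoclasts and blood cells were lower in 12 of 13 genes, and 1 was higher. Tnfsf11, RANKL, the cytokine that makes osteoclasts form, had 6.76, 8.9 and 4.89 CPM in GFP-positive and 22.6, 17.4 and 18.3 CPM in GFP-negative libraries (-1.53 ± 0.21). The gene of its decoy receptor, Tnfrsf11b, rose by 0.42 ± 0.09 (adjusted p = 0.0514 without replicate 1), at 69.9, 58.8 and 60.8 CPM in GFP-positive and 45.6, 44.2 and 51.3 CPM in GFP-negative libraries. Sema3a, an inhibitor of osteoclasts, had 1.1 and 16.6 CPM on average in GFP-positive and GFP-negative cells (-3.88 ± 0.28). Kitl, the stem cell factor, and Csf1, the macrophage growth factor, were at -3.05 ± 0.16 and -2.18 ± 0.09. Kitl, Cxcl12, Csf1, Il7 and Angpt1 are also on the marrow stroma list, so these counts overlap.

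Of 20 genes of collagen processing and secretion, 11 rose and 6 fell. Enzymes that modify collagen inside the cell were among the rises, with P4ha2, a proline hydroxylase subunit, at 1.12 ± 0.06 and Plod2, a lysine hydroxylase, at 0.82 ± 0.06. Genes acting on collagen outside the cell included the falls: Lox, which cross-links it, had 279, 194 and 178 CPM in GFP-positive and 1016, 1187 and 1017 CPM in GFP-negative libraries (-2.33 ± 0.14), and the propeptide proteases Adamts2 and Bmp1 were at -2.77 ± 0.11 and -1.44 ± 0.06. Loxl3 and Loxl4, of the same enzyme family as Lox, rose by 1.03 ± 0.06 each. Of 14 metalloproteases and inhibitors, 10 fell and 1, the inhibitor Timp3, rose (0.33 ± 0.07, adjusted p = 0.407 in a fit of all 18 libraries).

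Complement genes fell in 7 of 9 cases, and C3 rose by 0.81 ± 0.24 (adjusted p = 0.14 without replicate 1). Serping1, which encodes an inhibitor of the first complement proteases, had 25.6, 38.5 and 28.2 CPM in GFP-positive and 311, 367 and 272 CPM in GFP-negative libraries (-3.37 ± 0.09). Of 17 immediate early and heat shock genes, which respond quickly to stress or dissociation, 13 rose and 1 fell (median 0.72). The heat shock members differed: Dnajb1 was higher, with a mean log2 difference of 1.42. Hspa1a, Hsph1 and Hspa1b were at -0.11, 0.04 and -0.86. Atf3 had 1892, 1975 and 1844 CPM in GFP-positive and 711, 759 and 815 CPM in GFP-negative libraries (1.32 ± 0.06), and Fos was higher by 0.46 ± 0.06. In a fit of all 18 libraries with no block, 8 of the 17 rose and the call of Atf3 ended (adjusted p = 0.0613, and 0.108 with the 9 control libraries). Of 20 cell cycle genes, 4 rose and 2 fell, with a median of -0.03. The rises were 0.40 to 0.62 and the falls -0.62 to -0.48. Called or not, 3 of the 20 lay wholly higher and 4 wholly lower in GFP-positive libraries. Without the replicate 3 pair 2 rose and 1 fell, and in the fit of all 18 libraries 2 rose and 3 fell. Ccnb1, the mitotic cyclin, had 47.8, 50.2 and 52.8 CPM in GFP-positive and 31.1, 31.3 and 36 CPM in GFP-negative libraries (0.62 ± 0.09), while Top2a, an S and G2 phase gene, was not called (-0.10 ± 0.14).

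**Figure D4:**
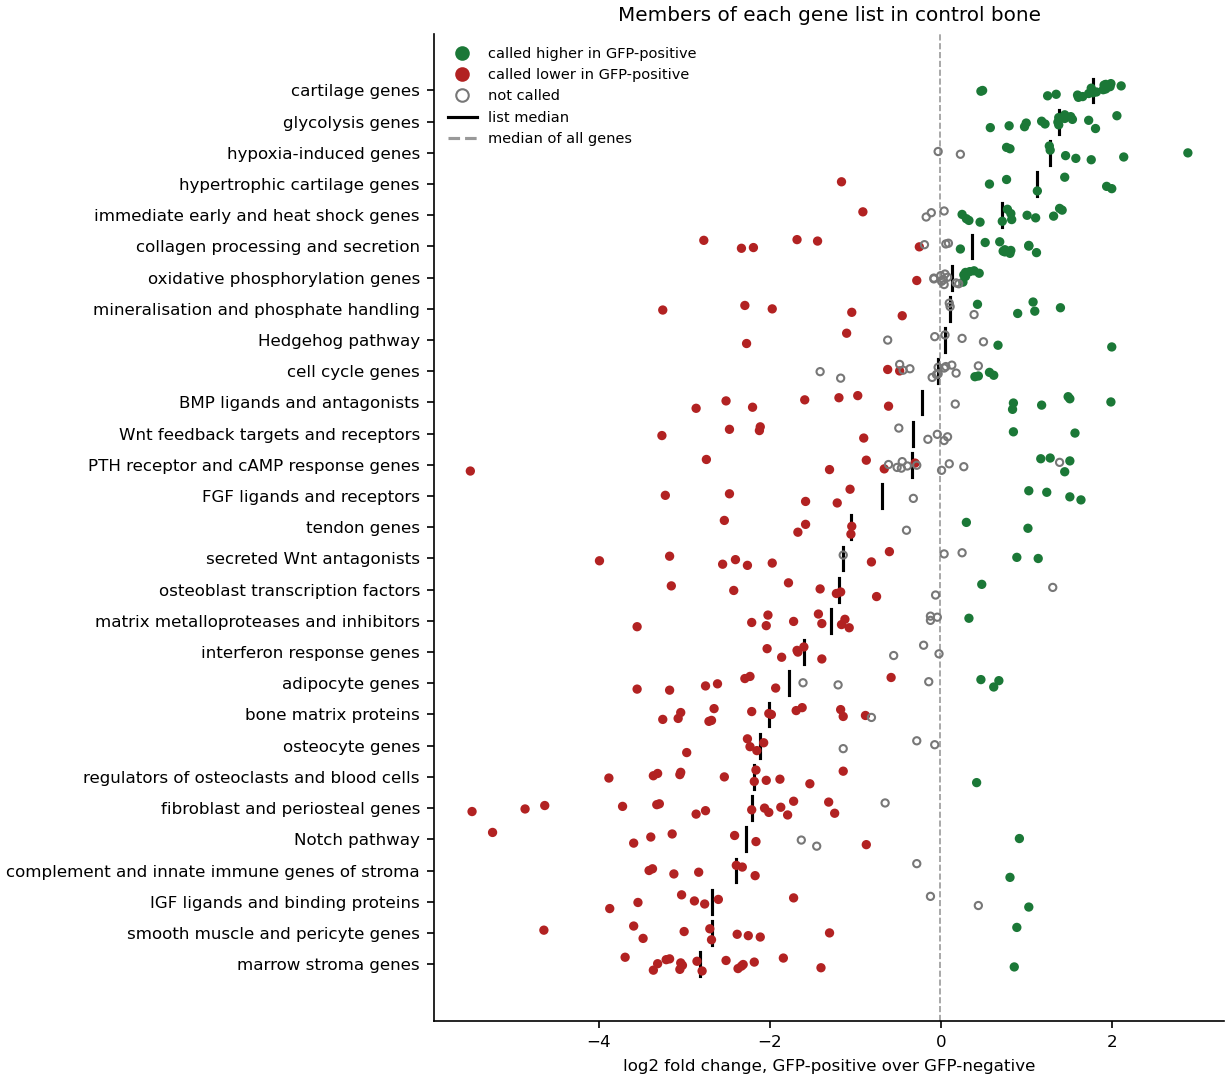
Log2 fold change of each tested member of 29 gene lists, GFP-positive over GFP-negative control bone, sorted by list median. Filled points were called (adjusted p under 0.05), open points were not, black bars are list medians and the dashed line is the median of all genes (-0.01); cartilage and glycolysis genes lie furthest to the right and marrow stroma genes furthest to the left.

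Markers of other cell types were low in most cases. B cell and T cell markers were not tested for lack of counts (sums up to 1.07 CPM in GFP-positive and 6.07 CPM in GFP-negative libraries), and Cd8a was at 0 in all 6. Of 5 endothelial markers tested, only Esam was called, and it fell, while Pecam1 was at 2.42 (adjusted p = 0.0516). With all 3 pairs, no erythroid (0 of 8), neutrophil (0 of 7), macrophage (0 of 6) or platelet (0 of 1) marker was called. Erythroid markers summed to 128 to 155 CPM in GFP-positive and 22.1 to 529 CPM in GFP-negative libraries, where GFP-negative replicate 2 was high (Hbb-bs 213 CPM, with 8.39 and 24.4 CPM in GFP-negative replicates 1 and 3). Without the replicate 2 pair, 6 of 8 erythroid markers (median 1.72), 3 of 5 neutrophil markers (median 2.48) and 1 of 2 macrophage markers were called higher in GFP-positive cells. Without the replicate 1 pair, 1 neutrophil and 1 macrophage marker were called lower. Of all genes 5065 were called without the replicate 2 pair, with 19 of 19 cartilage and 16 of 16 glycolysis genes higher and 16 of 18 marrow stroma genes lower. Osteoclast markers were not low as a sum, at 156 to 226 CPM in GFP-positive and 492 to 543 CPM in GFP-negative libraries. Of 4 tested 3 fell, namely Acp5, Mmp9 and Ctsk (-1.36 ± 0.08). Stromal cells also express Ctsk. Oscar, Dcstamp, Calcr and Atp6v0d2 of the same list had too few counts to be tested, and Calcr was at 0 in all 6. Which cells the osteoclast transcripts came from was not tested. Muscle markers summed to 11.9 to 16.7 CPM in GFP-positive and 6.04 to 8.52 CPM in GFP-negative libraries, and 2 of 3 tested rose. Schwann cell markers summed to 9.25 to 12.2 CPM in GFP-positive and 3.75 to 7.87 CPM in GFP-negative libraries, and of 4 tested Mbp and Sox10 rose and 1 fell. In each of these lists 1 rose with DESeq2 and without the replicate 2 or replicate 3 pair, and 1 Schwann cell marker rose without the replicate 1 pair. Myh4, Tnnc2 and Pax7 of muscle were at 0. The part of these cells in the differences was not tested.

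By size of fold change alone, the genes that rose most were rare transcripts. The 15 largest rises among genes with at least 5 CPM in the higher group ran from 3.31 to 2.48 on the log2 scale. Ddx25, an RNA helicase known from the testis, had 8.98, 6.32 and 8.61 CPM in GFP-positive and 0.318, 0.959 and 1.15 CPM in GFP-negative libraries (3.31 ± 0.41). Dlx2, a homeobox factor, had 7.6, 11.6 and 7.64 CPM in GFP-positive and 0.636, 1.23 and 1.15 CPM in GFP-negative libraries (3.16 ± 0.29). The better counted of the 15 were the connexin gene Gjc3, at 71.8, 65.8 and 68.5 CPM in GFP-positive and 11.1, 8.47 and 12.8 CPM in GFP-negative libraries (2.69 ± 0.12), and the synaptotagmin Syt8, at 125, 158 and 154 CPM in GFP-positive and 20.2, 23.6 and 33.1 CPM in GFP-negative libraries (2.53 ± 0.11). Stra6, a retinol transporter, rose by 2.96 ± 0.38. Ocm, Arhgef37, Mcoln3, Cdh19, Gfi1, Clic3, St14, Zim1 and Gfra3 were also among the 15. With no filter on low counts the calls of Arhgef37 and Cdh19 ended (adjusted p = 0.273 and 0.0865).

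The 15 largest falls were larger, from -6.41 to -4.49. Abcc9, the regulatory subunit of a potassium channel of smooth muscle and pericytes, had 0.0768, 0.201 and 0.242 CPM in GFP-positive and 17.4, 12 and 15.6 CPM in GFP-negative libraries (-6.41 ± 0.36, adjusted p = 1.07e-06). Mfap5, a microfibril protein, had 1.04, 0.685 and 1.11 CPM in GFP-positive and 26.3, 18 and 25.9 CPM in GFP-negative libraries (-4.63 ± 0.20). Nell1, a secreted factor known to promote bone formation, averaged 0.216 and 5.78 CPM in GFP-positive and GFP-negative cells (-4.71 ± 0.40), and Il33, an alarmin cytokine, 0.31 and 6.1 CPM (-4.61 ± 0.53). Rgs5 (above), Cadps2, Fmo2, Lingo3, AU015836, Naalad2, Pcdhac2, Tmem255a, Wdr86, Ms4a4d and Syt6 complete the 15, and the call of Pcdhac2 ended with no filter (adjusted p = 0.124). Among genes with a mean of at least 5 CPM, 84 of 2595 rises and 541 of 2464 falls were at least 4-fold, and 3 rises and 179 falls at least 8-fold.

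The same contrast in Pth1r knockout bone was compared with that in controls by an interaction test over the 12 bone libraries. Pth1r was still counted in the knockouts, at 4374, 3655 and 3043 CPM in GFP-positive and 1511, 1246 and 1130 CPM in GFP-negative libraries, and its difference between the subsets was not called as different (0.04 ± 0.09, knockout minus control, adjusted p = 0.858). The counts cover whole genes, so a transcript that lacks a deleted part would still be counted. Whether the Pth1r reads of the knockouts come from such transcripts was not tested. The contrast differed for 1304 of 14709 genes (8.87%). Its signed log2 value was higher in knockouts for 1057 (7.19%) and lower for 247 (1.68%). For a gene that is lower in GFP-positive cells, a higher value can mean a smaller fall.

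All 19 cartilage genes were called in this test, and all differed more between the subsets in knockouts. The log2 difference of the list ran from 1.93 to 3.89 in knockouts, against 0.47 to 2.11 in controls. Col2a1 had 303161, 282443 and 290371 CPM in GFP-positive and 27287, 21652 and 29437 CPM in GFP-negative knockout libraries, and its interaction was 1.87 ± 0.14. The next highest shares among the lists described were 9 of 13 mineralisation genes and 12 of 20 cell cycle genes. Of the other lists, 6 of 16 glycolysis genes, 1 of 18 marrow stroma genes, 2 of 15 bone matrix genes and 0 of 17 fibroblast genes were called, and the knockout difference was below 0 for 15 of 15 bone matrix, 17 of 17 fibroblast and 17 of 18 marrow stroma genes. All 15 of the largest rises and all 15 of the largest falls in controls had the same direction in knockouts. They were picked for large differences without overlap in controls, and the share of all called genes that kept direction was not counted. In the interaction, 1 of the rises (Syt8) and 3 of the falls (Abcc9, Tmem255a, Syt6) were called. The rise of Syt8 was larger in knockouts, and these 3 falls were smaller. With libraries scaled by totals alone, the signed value was higher in knockouts for 653 genes and lower for 404.

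**Figure D5:**
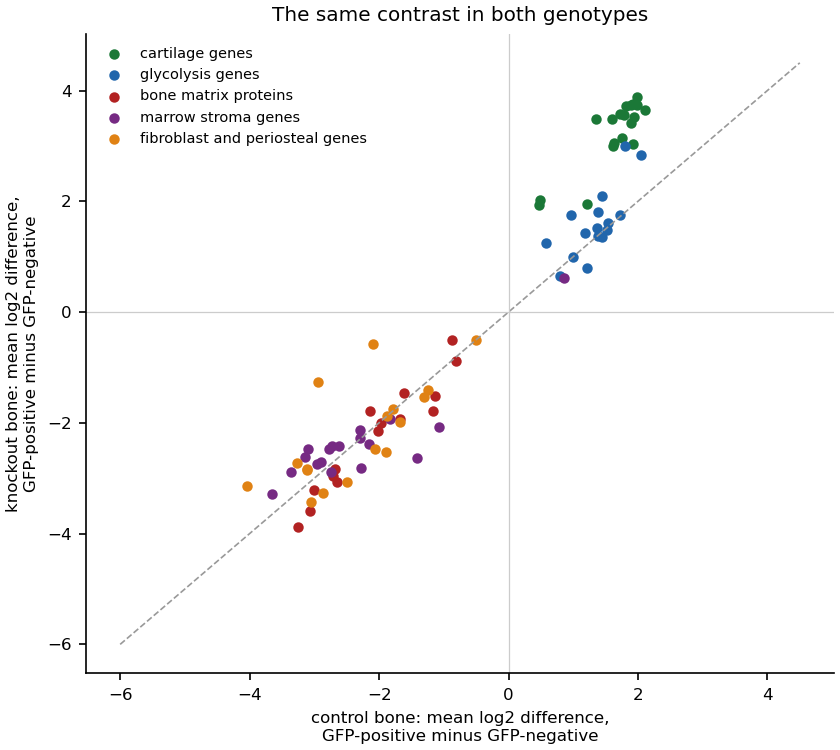
Mean log2 difference (CPM after TMM scaling plus 0.5, GFP-positive minus GFP-negative, 3 pairs) in knockout bone against control bone, 1 point per gene of 5 lists. The dashed line marks equal differences; the cartilage genes lie above it, at 1.93 to 3.89 in knockouts, and the other lists scatter along it.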

How the data were processed

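RNA of sorted cells was sequenced in 6 control bone libraries (3 GFP-positive, 3 GFP-negative), and 12 others of the series were used for levels, the interaction and some alternatives. RNA came from an RNeasy Plus Micro kit and libraries from SMART-Seq v4 and ThruPLEX reagents, per the labels' protocols. The authors deposited 1 table of unnormalised featureCounts read counts for each library, per the file headers. The submitters' processing notes name STAR, featureCounts, DESeq2 and mm10. Strand use and the treatment of reads with several matches are not given in the sources used here. Near-identical, overlapping and antisense genes are therefore uncertain.

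Of 54446 gene IDs, 54409 matched a symbol in GENCODE. Coordinates are from that annotation on mm10, promoters from RefSeq on GRCm38.p6. Low genes were removed with filterByExpr, grouped by subset (at least 10 counts, 15 in total). The rest were tested with edgeR 4.0.16 in R 4.3.3 (TMM, robust quasi-likelihood F-test, replicate number as a block, 2 residual degrees of freedom, two-sided, Benjamini-Hochberg over all genes tested). The SE is the size of the log2 fold change divided by the square root of F. The interaction was fitted on 12 bone libraries with a block within each genotype (14709 genes, 4 residual degrees of freedom). The test was checked on simulated counts with few changed genes, as many higher as lower, the same dispersion for all and no replicate effect. Such counts cannot check the scaling of groups this unlike or the pairing.

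The pairing is set by the comparison as defined. Correlations of the deviations of same-number libraries were 0.0839, 0.052 and 0.145, not all over 0.1, and each library correlated best with its own number. Replicates 1 and 2 carry Y-linked reads and replicate 3 hardly any, in both groups. No 2 replicates agreed within sampling noise (chi-square over degrees of freedom was 13.7 to 24.3).

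The 39 gene lists, the members and the tests were chosen with earlier results of these data known. Named genes are the 15 largest rises and falls among called genes without overlap whose higher group reached 5 CPM on average, the 10 most read genes per group, Sp7, Runx2 and Pth1r, for each list as many as 6 members of lowest p, and the 8 genes of lowest p in the interaction. Names starting with Gm and digits, pseudogenes, mitochondrial genes and Rik names were not used. Further list members were named after their values were seen. Genes with several IDs per symbol were read from the ID that overlaps the RefSeq gene. Alternatives were no block, other scalings, no filter, DESeq2 1.42.0, other sets of libraries, a gene length correction and leaving out libraries. Some genes are not reported here.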

Additional observations from a re-analysis of the deposited data

Results flagged for a closer look

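The difference between GFP-positive and GFP-negative cells was not the same in knockout and control bone for 1304 genes (edgeR interaction test over 12 bone libraries), and the 8 with the smallest p are given here because the contrast differed between the genotypes. Values are log2 differences, knockout minus control. Colgalt2, a collagen galactosyltransferase, differed by 2.25 ± 0.13, with means of 394 CPM in GFP-positive and 26.1 CPM in GFP-negative knockout libraries, against 189 and 59.5 CPM in the control ones. Scrg1, a secreted protein of cartilage, differed by 2.08 ± 0.10. Srxn1, an antioxidant enzyme, differed by 1.98 ± 0.10, with 323, 403 and 705 CPM in GFP-positive and 73.7, 94.3 and 145 CPM in GFP-negative knockout libraries. It was not called in controls (0.17 ± 0.09), where it averaged 56.6 CPM in GFP-positive and 50.2 CPM in GFP-negative cells. The cartilage matrix genes Epyc, Col9a3 and Matn1 differed by 1.90, 1.88 and 1.83, Cnmd by 1.74 and Ncmap by 1.64. For Scrg1 the knockout means were 411 CPM in GFP-positive and 27.4 CPM in GFP-negative cells, against 320 and 91.1 CPM in controls. Each of the 8 had an adjusted p of 1.36e-05 in edgeR. The control libraries are shared with the contrast of the controls alone. No cause was tested.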

How the results depend on the processing

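With no replicate block, 5829 genes were called, 5614 of them among the 5899 called with the pairing, and the interaction gave 1019 calls. The numbers 1 to 3 pair the libraries by definition of the comparison, and the correlations are a hint from the data, not the design. Counts of calls in controls stayed within 1.5 times under every alternative run (5453 with DESeq2 to 6503 with library totals, 4650 to 5065 without a replicate pair, 4947 to 5282 without 1 library). With library totals alone, the share of calls higher moved to 63.6%, the interaction to 653 higher and 404 lower calls, and Cox4i1 to 0.19. With the gene length correction, run with the replicate block, 5875 genes were called and Ndufa1 moved to -0.28. The Spearman correlation of log2 fold change with gene length was -0.11, and 0.02 after that correction. Without a replicate of each genotype, the interaction gave 523 to 635 calls, 477 to 552 higher and 46 to 83 lower. The cause of these moves was not tested. Depth limits genes under about 1 CPM. How often 1 library decides the call of such a gene was not tested, and the call of the better counted Mmp13 also ended when 1 library was left out.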
